A study of Mus musculus with 8 samples.

Results

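Unstimulated CD4 T cells of Mir-21 knockout mice were compared with those of wild-type littermates on 4 of the 8 arrays of the series, 2 arrays a side. The arrays were chosen by their labels, with earlier results of these data known. They hold Mir-21 KO (genotype Mir-21-/-) CD4+CD25High and CD4+CD45High cells, and WT CD4+CD25High and CD4+CD45High cells, none of which had received antibody. Cells were sorted by flow cytometry from mesenteric lymph nodes, the nodes that drain the gut, and total RNA was hybridised to Illumina MouseRef-8 v2.0 bead arrays. All 4 groups are single arrays, and the arrays were paired by sorted population. The other 4 arrays hold the same combinations after 30 min with antibodies against CD3 and CD28. The age, sex and strain of the mice, the number of mice behind each RNA and the CD45 isoform used for the sort are not stated in the labels, and the deletion is labelled as a whole-animal genotype with no cell type named. The p-values below therefore do not measure the spread between mice. They set the size of the difference against a variance. That variance joins the disagreement of the CD25High and the CD45High pair with a value pooled over all tested probes.

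MicroRNAs are short RNAs that pair with messenger RNAs, mainly through bases 2 to 8 of the mature strand (the seed), and lower the level or the translation of the target. miR-21 is abundant in many activated immune cells and is processed from a hairpin that lies, in the GRCm38.p6 RefSeq annotation, within the span of Vmp1 on chromosome 11. Early response genes, several of which appear below, are transcribed within minutes of a signal and mostly give short-lived messages: they encode AP-1 and other transcription factors, stress proteins, phosphatases that end MAP kinase signalling and proteins that switch NF-kappaB off again. CD25, encoded by Il2ra, is part of the high-affinity interleukin 2 receptor and marks regulatory T cells among others.

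The mature strands of the targeted microRNA are shown here because its absence defines the KO group. Both come from RefSeq, run 5′ to 3′, and have the seed in capitals.
mmu-miR-21a-5p, GRCm38.p6 chr11:86584120-86584141, minus strand: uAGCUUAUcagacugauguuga
mmu-miR-21a-3p, GRCm38.p6 chr11:86584082-86584103, minus strand: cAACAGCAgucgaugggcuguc

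The array holds no probe under a Mir21 symbol, so the deletion itself was not measured on these arrays. Defining markers followed the sort. Foxp3, which regulatory T cells need for their identity, had 11.24 in KO and 11.10 in WT CD25High cells, and 5.47 in KO and 5.61 in WT CD45High cells (probe ILMN_2635132; all levels are log2 of the background-corrected, quantile-normalized intensity). Il2ra had 8.61 in KO and 8.28 in WT CD25High cells and was not above background in CD45High cells of either genotype. Of the T cell receptor complex and adaptor genes, 17 of 18 were tested and 0 were called at rest, with a median difference of 0.01. Xist and the Y-linked gene Ddx3y were both above background on all 4 unstimulated arrays. Between 9644 and 10480 probes per unstimulated array were above background (detection p below 0.01), and the median probe was read from 38 to 39 beads. The KO CD25High stimulated array stood apart from the rest, with a median correlation across probes of 0.886 with the other arrays against 0.937 to 0.964 for those. It enters the unstimulated comparison only through the shared quantile normalization. The test of the resting minus the stimulated difference is given with and without it. Sign counts, medians and mean differences of the stimulated pairs are given with it only.

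Far more probes were called lower than higher in KO cells, with Gadd45b, Irs2, Tnfaip3 and Fosb the largest falls. Of 10405 probes tested, 39 passed an adjusted p of 0.05 (0.375% of probes tested), 4 of them higher in KO (0.0384%) and 35 lower (0.336%). The 35 lower probes belong to 32 genes and were 1.76- to 3.66-fold lower in KO than in WT cells, each at least 1.5-fold lower in both pairs. The 5 lists of AP-1, EGR and KLF, GADD45, NF-kappaB and MAP kinase phosphatase genes hold 11 of the 32, out of 53 of their genes tested, and 21 of the 32 lie outside these lists. Of all genes tested, 0.351% were called lower by their brightest probe. The lists were chosen with earlier results of these data known, so their counts here and below are a description. The test was limma's moderated test on log2 values with sorted population as a block, Benjamini-Hochberg adjusted over all probes, and 1213 probes had an unadjusted p under 0.05. No probe passed when dim probes were tested as well, when the population block was dropped or when all 8 arrays were fitted together, and from 20 to 138 probes passed under 6 other background corrections, offsets and scalings. The genes below are calls of the 1 fit described here.

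Without a test, 10 probes were at least 1.5-fold higher in KO in both pairs (0.0961%) and 62 at least 1.5-fold lower in both (0.596%), while 0 moved that far in opposite directions. In the CD25High pair alone 193 probes were at least 1.5-fold higher in KO (1.85%) and 380 lower (3.65%). In the CD45High pair alone 84 were higher (0.807%) and 132 lower (1.27%). The SD of the differences over all probes was 0.30 in the CD25High pair and 0.23 in the CD45High pair (log2), and the differences of the 2 pairs, which share no array, correlated across the 10405 probes at Pearson's r = 0.32. Probes are not independent replicates and the value is a description. Over the 7692 genes tested, each by its brightest probe, the median difference was 0.02, and 25.4% of genes were below 0 in both pairs against 33.5% above 0 in both.

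**Figure D1:**
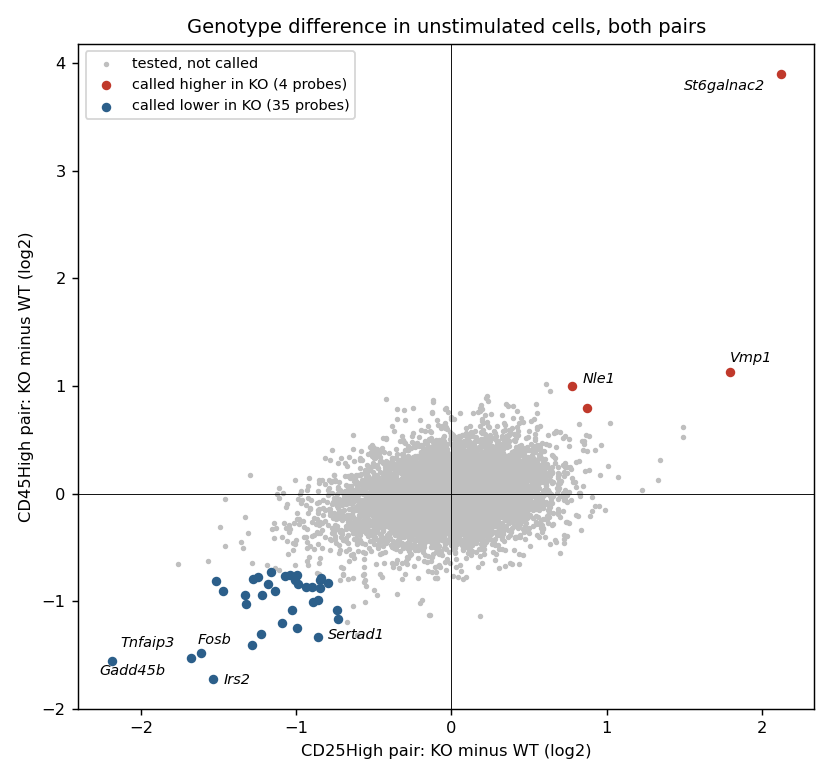
Each point is 1 of 10405 probes, with the KO minus WT difference of the CD25High pair on the x axis and of the CD45High pair on the y axis (log2, 1 array per genotype and pair). The 35 probes called lower in KO (blue) lie at the lower left, and the 4 called higher (red) at the upper right, with St6galnac2 farthest out.

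The largest fall was in Gadd45b, which encodes a stress sensor that binds MAP kinase kinases. Its level was 7.37 in KO and 9.56 in WT CD25High cells, and 6.84 in KO and 8.39 in WT CD45High cells. Both KO arrays were below both WT arrays, and the gene fell by 1.87 on the log2 scale (SE 0.17, 2 pairs, limma adjusted p = 0.0077), to 0.273 times the WT level. Its relatives behaved unevenly. Gadd45a, a growth arrest protein of the same family, had 7.08 in KO and 8.11 in WT CD25High cells, and 6.91 in KO and 7.997 in WT CD45High cells, and fell by 1.06 (SE 0.13, limma adjusted p = 0.0231). Gadd45g, the remaining family member, was not called, with differences of -0.11 in the CD25High and -0.79 in the CD45High pair for its brighter probe. Ppp1r15a, the phosphatase subunit also known as Gadd34 that restores translation after stress, had 9.24 in KO and 10.71 in WT CD25High cells, and 9.54 in KO and 10.45 in WT CD45High cells. It fell by 1.19 (SE 0.16, limma adjusted p = 0.0392). Of the list of GADD45, p21 and PLK stress genes, 9 of 12 were tested, 3 fell and 0 rose, beside 0.351% of all genes called lower and 0.039% called higher by their brightest probe. Because the list was chosen with earlier results known, these shares are no test of it. The list's median difference was -0.45, 7 of its 9 genes were below 0 in both pairs and 0 above 0 in both. Plk2, a polo-like kinase, had differences of -1.57 and -0.62 without passing the test (adjusted p = 0.103), and Cdkn1a, which encodes p21, had -0.04 and 0.26.

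Members of the AP-1 family, dimers of Fos and Jun proteins, did not move as one. Fosb had 6.73 in KO and 8.35 in WT CD25High cells, and 6.27 in KO and 7.76 in WT CD45High cells, and fell by 1.55 (SE 0.13, limma adjusted p = 0.00548). Junb had 10.55 in KO and 11.77 in WT CD25High cells, and 10.56 in KO and 11.50 in WT CD45High cells, and fell by 1.08 (SE 0.13, limma adjusted p = 0.0295). In both genes every KO array lay below every WT array. Fos itself had 10.25 in KO and 10.36 in WT CD25High cells, and 10.02 in KO and 10.18 in WT CD45High cells, a difference of -0.14 (SE 0.13, limma adjusted p = 0.717). Jun had -0.57 and -0.82 in the 2 pairs, Jund -0.06 and 0.11, and Batf 0.08 and 0.01, and none of these was called. In all, 2 of the 6 AP-1 genes tested fell, with a list median of -0.42.

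Among NF-kappaB subunits and feedback inhibitors, the inhibitor genes Tnfaip3 and Nfkbia fell. Tnfaip3, which encodes the ubiquitin-editing enzyme A20, had 8.26 in KO and 9.94 in WT CD25High cells, and 7.81 in KO and 9.33 in WT CD45High cells. It fell by 1.60 (SE 0.13, limma adjusted p = 0.00548), and its KO values did not overlap its WT values. Nfkbia, which encodes the inhibitor that holds NF-kappaB in the cytoplasm, had 10.16 in KO and 11.49 in WT CD25High cells, and 9.64 in KO and 10.59 in WT CD45High cells, and fell by 1.14 (SE 0.14, limma adjusted p = 0.0295). These 2 were the only calls among 14 list genes tested, and the list's median was -0.07. The subunits Rela (-0.08 and -0.22), Rel (-0.16 and -0.03), Relb (-0.11 and 0.05), Nfkb1 (0.03 and 0.05) and Nfkb2 (0.52 and 0.06) were not called. Nor were the inhibitor genes Nfkbib (-0.04 and -0.13), Nfkbie (-0.30 and 0.17) and Tnip1 (0.19 and 0.11). Nfkbiz and Nfkbid, inhibitor-like nuclear regulators, had -0.56 and -0.61, and -0.58 and -0.27, without passing.

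**Figure D2:**
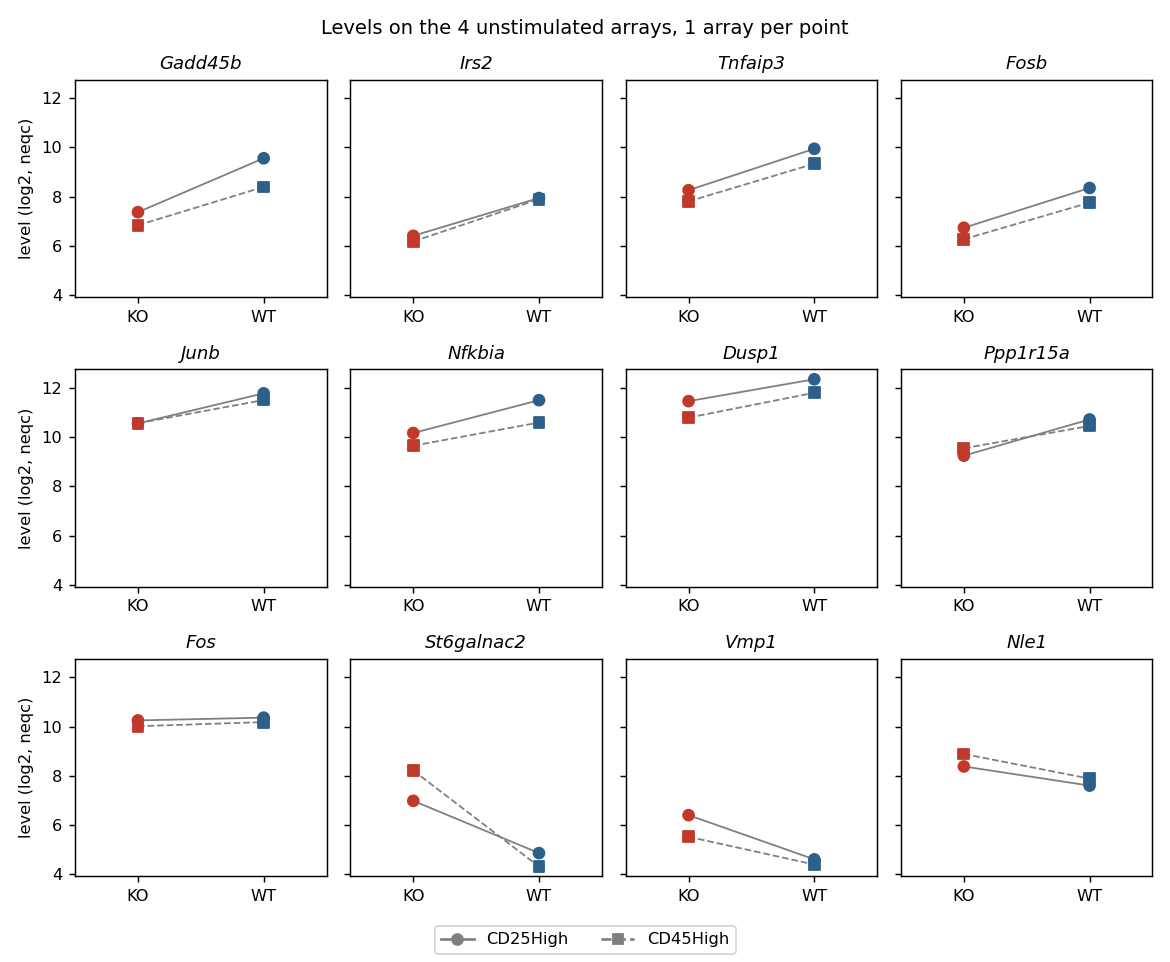
Log2 levels (y axis) of 12 genes on the 4 unstimulated arrays, KO at the left and WT at the right of each panel, 1 array per point, with lines joining the arrays of 1 sorted population (circles CD25High, squares CD45High). Gadd45b, Irs2, Tnfaip3, Fosb, Junb, Nfkbia, Dusp1 and Ppp1r15a are lower on both KO arrays, Fos is nearly level, and St6galnac2, Vmp1 and Nle1 are higher on both KO arrays.

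Among the other early response transcription factors, Klf4, a Kruppel-like factor of quiescence and differentiation, was called lower by all 3 of its tested probes. Its brightest probe (ILMN_2999439) had 4.85 in KO and 5.98 in WT CD25High cells, and 4.63 in KO and 5.54 in WT CD45High cells, and fell by 1.02 (SE 0.13, limma adjusted p = 0.0327). The remaining 2 probes were not above background on any KO array and were at least 1.84-fold (ILMN_1241903) and at least 1.31-fold (ILMN_1221264) lower in KO. Ier3, a stress-inducible survival protein, had 4.90 in KO and 6.22 in WT CD25High cells, and 4.49 in KO and 5.52 in WT CD45High cells, and fell by 1.17 (SE 0.14, limma adjusted p = 0.0231). The Ier3 probe and the brightest Klf4 probe were each above background on 1 of the 2 KO arrays, so the sizes of their falls rest partly on a value at background. Csrnp1, a nuclear protein induced by axin, fell by 1.01. Of the EGR, NR4A, IER and KLF list, 16 of 21 genes were tested, 3 fell and 0 rose, with a median of -0.29. Nr4a2, an orphan nuclear receptor, had -1.49 in the CD25High and -0.31 in the CD45High pair (adjusted p = 0.254), Crem had -0.66 and -0.63 for its brightest probe, and Zfp36, which speeds the decay of AU-rich messages, had -0.76 and -0.35. Egr2 was above 0 in both pairs, with 0.40 and 0.02.

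Of the MAP kinase phosphatases and Sprouty family, 1 of 8 genes tested fell, and the list's median was -0.34 with 6 of 8 below 0 in both pairs. Dusp1, a nuclear phosphatase of p38 and JNK, had 11.45 in KO and 12.34 in WT CD25High cells, and 10.78 in KO and 11.79 in WT CD45High cells, and fell by 0.95 (SE 0.13, limma adjusted p = 0.0392). Dusp10 had -0.91 and -0.48, Dusp2 -0.86 and -0.36, and Dusp4 -0.53 and -0.28 by their brightest probes, none of them called. Of 6 RGS genes, which shorten signalling from G protein coupled receptors, 0 were called. Rgs16 had 7.34 in KO and 9.11 in WT CD25High cells, and 5.10 in KO and 5.76 in WT CD45High cells (adjusted p = 0.103), so the difference was larger in the CD25High pair. The 3 Rgs1 probes ran the other way, with -0.15 to -0.64 in the CD25High and -1.05 to -1.32 in the CD45High pair. Cd69, an early activation antigen that retains T cells in tissue, had 11.28 in KO and 12.39 in WT CD25High cells, and 11.45 in KO and 12.17 in WT CD45High cells, and missed the threshold with an adjusted p of 0.0504.

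Genes outside these lists also fell. Irs2, an adaptor of insulin and interleukin 4 receptors, had 6.41 in KO and 7.94 in WT CD25High cells, and 6.18 in KO and 7.90 in WT CD45High cells, and fell by 1.63 (SE 0.13, limma adjusted p = 0.00548). Rasl11b, a small GTPase of the Ras superfamily, fell with both of its tested probes, by 1.35 and by 1.12. Tagap, a GTPase-activating protein of activated T cells, had 5.69 in KO and 6.92 in WT CD25High cells, and 5.47 in KO and 6.78 in WT CD45High cells with the called probe (ILMN_2700634), which fell by 1.27. Its brighter probes had -0.70 (ILMN_2879755) and -0.34 (ILMN_2879759) and were not called, so the size of the Tagap difference depends on the probe. Tnf, the only called gene of 15 cytokine and chemokine genes tested, had 6.98 in KO and 8.05 in WT CD25High cells, and 7.11 in KO and 7.88 in WT CD45High cells, and fell by 0.92 (SE 0.14, limma adjusted p = 0.0474). Il10 had -0.86 and -0.18 and was above background only in CD25High cells.

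The remaining falls were 0.81 to 1.15 in size. They include Hspa2 (1.15) and Dnajb9 (0.92), which encode members of chaperone families, while of 11 genes tested from the heat shock and chaperone list 0 were called and the median was -0.02. They also include the stress transcription factor Atf4 (0.90) and Zfand2a (0.86), which is induced when proteins misfold. Sertad1, a cell cycle regulator, fell by 1.10, Tob1, an antiproliferative protein of resting T cells, by 0.91, and Per1, a component of the circadian clock, by 0.91. Hexim1, which inhibits the elongation factor P-TEFb, fell by 1.01, Sik1, a salt-inducible kinase above background on 1 of 2 KO arrays, by 0.90, and Arc, an activity-regulated gene best known from neurons, by 0.95. Coq10b, of coenzyme Q metabolism, fell by 1.03, Spty2d1, a histone chaperone, by 0.94, Galnt10, which starts O-linked sugar chains, by 0.83, P2ry10, a lysophospholipid receptor, by 0.81, and Bex2 by 0.81. For Nup88, a nuclear pore protein, 1 probe fell by 0.90 (ILMN_3034381) while the brighter probe had -0.02 and 0.01 (ILMN_3108109). LOC667370, a symbol of the array file that was not matched to RefSeq, fell by 0.88.

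The promoters of 5 genes that fell are shown with the letters searched for. They were picked from the called-lower genes whose promoter holds a match. Gadd45b, Irs2 and Junb are not among the genes with a match. Each window runs from 250 bases before to 50 after the annotated start (RefSeq, GRCm38.p6), reads 5′ to 3′ on the strand of the gene, and has the matches in capitals. The searched motifs, on both strands, were TGACGTCA (the cyclic AMP response element, CRE), TGANTCA (AP-1), GAAANNGAAA (the interferon-stimulated response element), the kappaB consensus and the CArG box.
Tnfaip3 promoter, GRCm38.p6 chr10:19015361-19015660, minus strand: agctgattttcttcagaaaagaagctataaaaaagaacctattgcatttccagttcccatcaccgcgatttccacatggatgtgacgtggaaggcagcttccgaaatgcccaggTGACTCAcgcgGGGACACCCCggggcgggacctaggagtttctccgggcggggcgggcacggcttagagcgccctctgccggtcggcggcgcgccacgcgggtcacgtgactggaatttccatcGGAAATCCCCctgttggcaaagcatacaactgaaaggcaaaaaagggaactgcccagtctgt
Nfkbia promoter, GRCm38.p6 chr12:55492598-55492897, minus strand: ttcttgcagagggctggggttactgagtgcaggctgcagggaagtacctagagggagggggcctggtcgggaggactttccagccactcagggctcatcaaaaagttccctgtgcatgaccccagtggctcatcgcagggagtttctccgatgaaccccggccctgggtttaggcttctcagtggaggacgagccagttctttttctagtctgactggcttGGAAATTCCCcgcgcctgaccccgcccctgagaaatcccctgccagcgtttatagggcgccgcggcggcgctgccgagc
Ier3 promoter, GRCm38.p6 chr17:35821463-35821762, plus strand: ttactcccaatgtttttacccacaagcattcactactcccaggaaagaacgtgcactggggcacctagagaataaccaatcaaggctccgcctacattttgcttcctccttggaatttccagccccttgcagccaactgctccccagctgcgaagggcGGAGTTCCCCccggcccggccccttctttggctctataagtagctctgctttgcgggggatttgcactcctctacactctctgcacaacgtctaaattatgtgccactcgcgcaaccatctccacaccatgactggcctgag
Fosb promoter, GRCm38.p6 chr7:19309996-19310295, minus strand: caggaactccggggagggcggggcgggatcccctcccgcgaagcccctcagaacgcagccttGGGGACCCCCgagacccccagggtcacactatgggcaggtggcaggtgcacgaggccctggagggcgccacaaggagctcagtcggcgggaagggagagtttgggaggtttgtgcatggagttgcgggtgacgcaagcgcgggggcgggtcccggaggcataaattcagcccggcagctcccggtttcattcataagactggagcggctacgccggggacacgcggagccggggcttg
Ppp1r15a promoter, GRCm38.p6 chr7:45526219-45526518, minus strand: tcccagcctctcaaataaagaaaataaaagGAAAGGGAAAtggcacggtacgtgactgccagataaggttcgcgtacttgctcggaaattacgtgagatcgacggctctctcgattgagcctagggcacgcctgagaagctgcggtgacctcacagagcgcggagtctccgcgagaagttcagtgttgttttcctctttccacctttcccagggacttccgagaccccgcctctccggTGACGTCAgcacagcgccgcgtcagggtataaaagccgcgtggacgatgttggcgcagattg

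The capitals mark in Tnfaip3 an AP-1 match at -136 to -130 and kappaB matches at -125 to -116 and -12 to -3, counted from the start as 0, and in Nfkbia, Ier3 and Fosb 1 kappaB match each. In Ppp1r15a they mark a GAAANNGAAA match and a CRE at -12 to -5. No matches of different motifs overlapped in these windows. Of the 32 genes called lower, 29 have a promoter in the table. A kappaB match was held by 4 of the 29 (13.8%), all of them shown above, against 6.38% of the tested genes with a promoter and 4.51% of all 32851 promoters. A CRE was held by 3 (10.3%), Dusp1, Ppp1r15a and Zfand2a, against 3.8% of tested genes and 1.79% of all promoters, and an AP-1 match by 3 (10.3%), against 5.93% and 7.81%. The interferon element was held by 1 gene (3.4%), against 3.8% and 3.44%, and the CArG box by 0, against 1.57% and 1.63%. Counts this small are a description, and a match is not evidence of binding.

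Interferon-stimulated genes had a median difference below that of all genes, with no call. Of 38 tested, 20 were below 0 in both pairs and 4 above 0 in both, and the median was -0.16 (-0.21 in the CD25High and -0.13 in the CD45High pair) against 0.02 over all genes. Oasl2, an oligoadenylate synthetase-like protein, had 6.65 in KO and 7.48 in WT CD25High cells, and 7.63 in KO and 8.14 in WT CD45High cells (adjusted p = 0.13). Rsad2, the antiviral protein viperin, had 7.42 in KO and 8.07 in WT CD25High cells, and 7.99 in KO and 8.56 in WT CD45High cells (adjusted p = 0.133). In both genes the KO value was below the WT value within each sorted population. Ifit3 had -0.72 and -0.52 with its brighter probe, Mx1 -0.56 and -0.47, Ifi35 -0.60 and -0.53, and Usp18, which dampens interferon receptor signalling, -0.66 and -0.27. Bst2, the virus tether, had the highest mean of the list, with 0.95 in the CD25High and -0.12 in the CD45High pair, and 10 of the 38 genes were above 0 in the CD25High and 12 in the CD45High pair. Of the 26 tested genes of the list with a promoter in the table, 12 (46.2%) held the GAAANNGAAA motif.

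**Figure D3:**
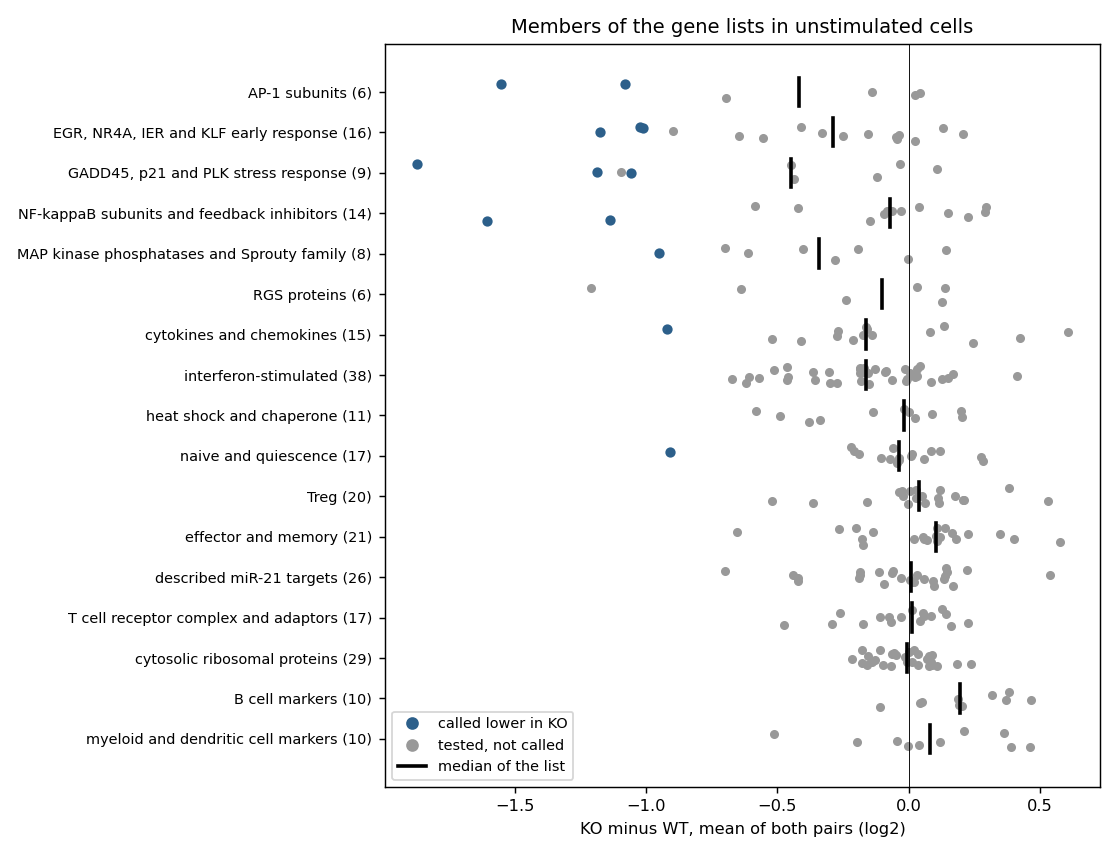
Each point is 1 tested gene of a list (number of tested genes in brackets), placed by its KO minus WT difference averaged over both pairs (x axis, log2), with the list's median as a black bar. Calls (blue) are all below 0 and lie in the early response, NF-kappaB, phosphatase, cytokine and naive lists, while the Treg, miR-21 target, T cell receptor and ribosomal lists have medians between -0.01 and 0.04.

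Genes of T cell identity gave 1 call. Of 20 Treg genes tested 0 were called, with a median of 0.04, and the values ran from -0.52 (Il10) to 0.53 (Il2rb, the beta chain of the interleukin 2 receptor). Ctla4, the inhibitory receptor of regulatory T cells, had 10.83 in KO and 10.98 in WT CD25High cells, and 7.0004 in KO and 7.58 in WT CD45High cells (adjusted p = 0.395). Ikzf2, which encodes Helios, had 0.45 in the CD25High pair and -0.09 in the CD45High pair. Among naive and quiescence genes 1 of 17 fell, Tob1, and the median was -0.04. Among effector and memory genes 0 of 21 were called, with a median of 0.10 made of 0.19 in the CD25High and -0.02 in the CD45High pair. Cell cycle, ribosomal protein, oxidative phosphorylation and actin cortex genes had 0 calls each and medians from -0.03 to 0.003.

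Described targets of miR-21 had no call and a median close to that of all genes. The list was put together from general knowledge, and 26 of its 40 genes were tested: 0 were called, 9 were above 0 in both pairs and 8 below 0 in both, and the median was 0.01 against 0.02 over all genes. Pdcd4, a translation inhibitor often used as a miR-21 reporter, had 7.84 in KO and 7.82 in WT CD25High cells, and 8.12 in KO and 8.20 in WT CD45High cells (adjusted p = 0.957). Among targets with the same sign in both pairs, the values farthest above 0 were those of Bcl2, a survival protein, with 0.61 and 0.46 for its brighter probe (adjusted p = 0.191), and of Reck, with 0.40 and 0.05. The farthest below 0 was Dusp10, given above. Topors (-0.39 and -0.49), Krit1 (-0.54 and -0.30) and Rhob (-0.43 and -0.41) followed it, and their means lay farther from 0 than that of Reck. Tgfbr2 had 0.09 and 0.10 with its brighter probe (ILMN_2760979) and -0.98 and -0.003 with the other (ILMN_1242086). An array of messenger RNA does not show a change in translation alone.

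Only 4 probes were called higher in KO. St6galnac2, a sialyltransferase that caps O-linked sugars, had 6.99 in KO and 4.87 in WT CD25High cells, and 8.22 in KO and 4.32 in WT CD45High cells, and rose by 3.01 (SE 0.33, limma adjusted p = 0.0207). Its probe was above background on both KO arrays and on 1 of the 2 WT arrays. Vmp1, a membrane protein of autophagy, had 6.41 in KO and 4.61 in WT CD25High cells, and 5.53 in KO and 4.40 in WT CD45High cells with probe ILMN_2861787 (limma adjusted p = 0.0231). That probe was not above background on any WT array and was at least 2.26-fold higher in KO. The other tested Vmp1 probes were not called: ILMN_2767635 had 0.54 and 0.55, and ILMN_2616768 had -0.69 and -0.08. Nle1, a ribosome assembly factor, had 8.38 in KO and 7.61 in WT CD25High cells, and 8.89 in KO and 7.89 in WT CD45High cells, and rose by 0.89 (SE 0.13, limma adjusted p = 0.0474). BC050811, a symbol not matched to RefSeq, rose by 0.83 (SE 0.13, limma adjusted p = 0.0479).

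The 3 called-higher probes with a RefSeq location all lie on chromosome 11, the chromosome of Mir21a. Of the 10 probes at least 1.5-fold higher in both pairs, 9 have a location and 6 of these are on chromosome 11: Hba-a1, Hspa4, Lsm12, Nle1, St6galnac2 and Vmp1. The share is 66.7%, against 8.70% of the 10021 tested probes with a location. Of the 62 probes at least 1.5-fold lower in both pairs, 61 have a location and 9 are on chromosome 11 (14.8%), and of the 35 called lower the count is 5 of 34 (14.7%), in Galnt10, Hexim1, Nup88, Per1 and Tob1. Among the genes nearest to Mir21a, 8 of 16 listed were tested, and by their brightest probes 0 were called and the median was -0.05. Ptrh2 on one side had 0.15 and 0.44, and Tubd1 on the other -0.65 and -0.31.

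Large values in 1 pair were not always borne out by the other. Prf1, which encodes perforin, had 9.23 in KO and 7.73 in WT CD25High cells, and 9.28 in KO and 8.76 in WT CD45High cells (ILMN_2960700, adjusted p = 0.133). Chka, choline kinase, had 1.35 in the CD25High and 0.31 in the CD45High pair with 1 probe (ILMN_3026397) and -0.33 and -0.54 with the other (ILMN_3099242). For Actb, cytoskeletal actin, 1 of 5 tested probes had 1.49 and 0.62 (ILMN_1377923, adjusted p = 0.0975), and the other 4 had means between -0.002 and 0.19. Hba-a1, a globin gene, had 8.18 in KO and 7.57 in WT CD25High cells, and 8.32 in KO and 7.30 in WT CD45High cells (adjusted p = 0.0764). It was the only 1 of 9 erythroid and platelet markers with a probe that was tested, and 8 of the 9 were above background on none of the 4 arrays.

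B cell markers were higher in KO than in WT in the CD45High pair, without a call. All 10 tested B cell markers were above 0 there, with a median of 0.49, while 7 of the 10 were below 0 in the CD25High pair with a median of -0.06. The summed linear level of the 16 B cell markers with a probe was 2059 in KO and 1346 in WT CD45High cells, and 4743 in KO and 5088 in WT CD25High cells. Myeloid and dendritic markers summed to 1305 in KO and 838 in WT CD45High cells, and to 1634 in KO and 1531 in WT CD25High cells, with 9 of 20 above background on no array. Of the 10 myeloid and dendritic markers tested, 6 were above and 4 below 0 in the CD45High pair, from Lyz2 (0.85) and Lyz1 (0.75) to Ctss (-0.34) and Cd68 (-0.64). Of 4 CD8 T and NK cell markers tested, 3 were below 0 there, with a median of -0.07, and the stromal and endothelial marker Pecam1 had -0.20. Of these lists 0 genes were called. Their part in the CD45High differences was not tested. In the stimulated CD45High pair the B cell median was -0.17, with 4 of the 10 tested markers above 0. The myeloid and dendritic median there was -0.20, with 3 of the 10 above 0. In the stimulated CD25High pair the B cell median was 0.32 and the myeloid and dendritic median 0.21.

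The stimulated arrays are separate samples, and on them the genes that were low in unstimulated KO cells were not consistently low. Of the 35 probes called lower at rest, 21 were below 0 in the stimulated CD25High pair and 9 in the stimulated CD45High pair, 8 in both, and 13 were above 0 in both. Their medians were -0.25 in the stimulated CD25High pair and 0.23 in the stimulated CD45High pair, against 0.14 and -0.0003 over all tested probes. Fosb had 8.51 in KO and 8.19 in WT stimulated CD25High cells, and 7.35 in KO and 6.08 in WT stimulated CD45High cells. Gadd45b had 10.79 in KO and 11.26 in WT stimulated CD25High cells, and 9.99 in KO and 9.31 in WT stimulated CD45High cells. Both genes were thus brighter in every stimulated KO array than in its unstimulated counterpart, and KO lay above WT in the stimulated CD45High pair. In WT cells Fosb was lower on both stimulated arrays than on the unstimulated ones.

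The difference between the 2 states was tested itself, as the resting minus the stimulated genotype difference over all 8 arrays. With all arrays 0 probes passed limma's test, 355 had an unadjusted p under 0.05 and the lowest adjusted p was 0.863. Without the KO CD25High stimulated array, 5 probes passed (0.0481%), all with a lower genotype difference at rest than after stimulation: Fosb, Gadd45b, Ier3, Irs2 and Tnfaip3. Fosb had -2.82 (SE 0.22, adjusted p = 0.0114), Tnfaip3 -2.34 (SE 0.22, adjusted p = 0.0252), Irs2 -2.18 (SE 0.22, adjusted p = 0.0306), Gadd45b -2.55 (SE 0.29, adjusted p = 0.0477) and Ier3 -2.005 (SE 0.23, adjusted p = 0.0492). The stimulated difference then rests on the CD45High pair alone. The SEs and adjusted p-values take their spread from the 2 unstimulated pairs, joined with the variance pooled over all tested probes. They do not measure the spread of the stimulated difference. In the stimulated CD25High pair Gadd45b had -0.46, Irs2 -0.60 and Ier3 -0.0008, against 0.68, 0.56 and 0.83 in the stimulated CD45High pair. Fosb and Tnfaip3 were above 0 in both. Since these 5 are among the probes called at rest on the same unstimulated arrays, the test is not independent of that call.

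Some differences kept their sign on all 4 pairs of arrays. Among the 39 called probes 11 did so: those of Vmp1, Nle1 and BC050811 above 0, and those of Atf4, Bex2, Galnt10, LOC667370, Nup88, P2ry10, Tagap and 1 of the 3 called Klf4 probes below 0. The share of all tested probes that kept their sign was not computed, so the count is a description and not a trait of the called probes. The 4 pairs include the KO CD25High stimulated array, which stood apart from the rest. Vmp1 (ILMN_2861787) had 7.46 in KO and 4.63 in WT stimulated CD25High cells, and 6.27 in KO and 4.45 in WT stimulated CD45High cells. Nup88 (ILMN_3034381) had 4.34 in KO and 6.75 in WT stimulated CD25High cells, and 4.999 in KO and 6.55 in WT stimulated CD45High cells. These probes thus separated KO from WT in each of the 4 pairs, in opposite directions, but other probes of the genes differed. In the stimulated CD25High and CD45High pairs Vmp1 had 0.70 and 0.24 with ILMN_2767635, and -2.25 and -0.71 with ILMN_2616768. The brighter Nup88 probe (ILMN_3108109) had -0.11 and -0.32 there. Of the 9 sign-keeping probes with a location, 4 (44.4%) are on chromosome 11, in Galnt10, Nle1, Nup88 and Vmp1, against 8.70% of all tested probes with a location. St6galnac2 had 6.12 in KO and 4.48 in WT stimulated CD25High cells, but 4.79 in KO and 5.47 in WT stimulated CD45High cells.

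**Figure D4:**
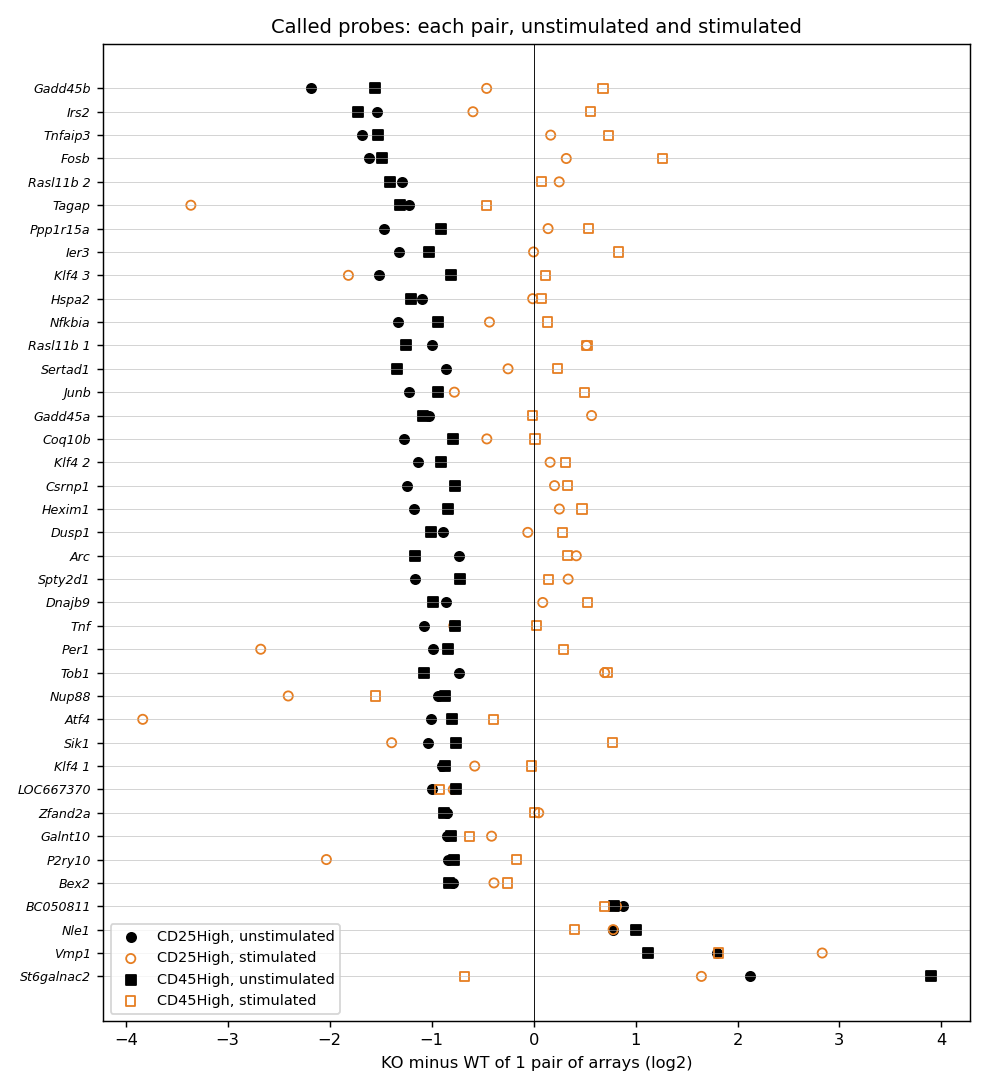
KO minus WT differences (x axis, log2) of the 39 probes called in unstimulated cells, 1 row per probe, for each pair of arrays: filled for unstimulated and open for stimulated, circles for CD25High and squares for CD45High. The filled points of a probe lie together on 1 side of 0, while the open points scatter around 0 for most of the called-lower probes and stay on the same side for Vmp1, Nle1, BC050811, Nup88 and Galnt10.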

How the data were processed

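Messenger RNA was measured on 8 Illumina bead arrays, of which the 4 unstimulated ones are compared here. The authors' deposited table gives, per the file headers, the mean bead intensity of each probe on a linear scale, with a bead standard error, a bead count and a p-value of detection. The deposited value table holds log2 values, which match the neqc values computed here to within 0.0626 on every array. The submitters' processing notes name limma without a version, and no scanner software is named in the sources used here.

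The intensities were turned into log2 values by neqc of limma 3.58.1 in R 4.3.3 (background from detection p-values, offset 16, quantile normalization of all 8 arrays). A probe was tested if its detection p was below 0.01 on 2 or more of the 4 unstimulated arrays, which held for 10405 of 25697. limma's lmFit and eBayes were fitted with population and genotype, leaving 1 residual degree of freedom. To this eBayes added 7.19 prior degrees of freedom from a variance pooled over all tested probes, which thus made up most of each variance. Benjamini-Hochberg adjustment was over all probes, with a threshold of 0.05. The pairing comes from the sorted population in the labels, not from shared animals. The resting minus stimulated test used all 8 arrays with each pair as a block and 2 residual degrees of freedom. Without the KO CD25High stimulated array, the spread in that test came from the 2 unstimulated pairs alone, again joined with the variance pooled over probes. Where a probe was not above background on either array of 1 genotype, its level on each such array was set no lower than the array's lowest detected signal, which makes the printed fold a lower bound. The fit of the unstimulated arrays was tested on simulated data, with noise drawn from the variances that limma had estimated. Such data meet the assumptions of the fit by design, and the other steps were not tested in this way.

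The arrays, gene lists, named genes and tests were chosen with earlier results of these data known. Named genes are all called probes, the largest values per pair and per direction, up to 6 members per list with the same sign in both pairs, and a fixed set that includes Foxp3, Il2ra, Pdcd4, Vmp1 and Actb. The remaining genes were named after their values were seen, to complete a family or list. A gene list takes each gene by its brightest probe. Of the array's probes, 20733 carry a current GRCm38.p6 symbol, 3872 an older one and 1092 could not be matched. With so few arrays, precision is set by their number.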

Additional observations from a re-analysis of the deposited data

Results flagged for a closer look

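The following probes were called lower in unstimulated KO cells, in both pairs, while both stimulated pairs lay above 0. The mean genotype difference after stimulation (KO minus WT, log2, 2 pairs) was 0.79 for Fosb, 0.45 for Tnfaip3, 0.71 for Tob1, 0.34 for Ppp1r15a, 0.36 for Hexim1 and 0.37 for Arc. It was 0.52 and 0.17 for the 2 Rasl11b probes, 0.27 for Csrnp1, 0.24 for Klf4 (ILMN_2999439), 0.31 for Dnajb9, 0.24 for Spty2d1 and 0.030 for Zfand2a. The resting minus stimulated difference of these 13 probes ran from -2.34 to -0.89. It was tested with limma over all 8 arrays and passed for 0 of the 13, with an adjusted p of 0.863 each. Without the KO CD25High stimulated array the stimulated difference rests on 1 pair, and the resting minus stimulated difference was -2.82 for Fosb and -2.34 for Tnfaip3.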

How the results depend on the processing

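Under the 6 other background corrections, offsets and scalings none of the 39 called probes changed sign, and between 20 and 39 of the 39 were still called. The other settings that gave these probes a value reuse the same pair differences, so no sign could change there. The count of calls did move. Calls higher in KO numbered 1 without background correction, 25 with an offset of 50, 18 with cyclic loess, 2 with quantile normalization of the unstimulated arrays alone and 2 among probes detected on all 4 unstimulated arrays. Calls lower in KO numbered 113 with the offset of 50 and 90 with cyclic loess. With the mean over the probes of a gene, 21 genes were called higher and 67 lower, and 6 genes were at least 1.5-fold higher in both pairs. With neqc of 7 arrays, without the KO CD25High stimulated array (chosen after seeing the data), 2 probes were called higher and 18 lower. Without the filter, without the population block and with all arrays in the fit, 0 probes were called in either direction. Probes at least 1.5-fold apart in both pairs numbered 2 higher and 21 lower without background correction, and 3 higher and 31 lower with the offset of 50. Leaving out each unstimulated array left 1 pair, in which 84 to 193 probes were at least 1.5-fold higher and 132 to 380 lower, with 0 calls in either direction in the fit of the remaining 7 arrays. For resting minus stimulated, 0 probes passed with all arrays and 5 without the KO CD25High stimulated array. The cause of these shifts was not tested, apart from the smaller number of arrays or tests that some settings imply. No paired analysis beyond the population block was possible because no group has more than 1 array. Of the 28 list medians, 22 kept their sign under all 11 settings that kept both pairs. They include the AP-1, EGR and KLF, GADD45, NF-kappaB, phosphatase and interferon lists, and also lists with medians near 0, such as ribosomal proteins and oxidative phosphorylation. Dropping the population block or fitting all arrays could not change a median.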
